A study of Mus musculus with 5 samples.

Results

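The genes described here build the kinetochore and run the spindle checkpoint in mouse tissue labelled dorsolateral prostate. The 37 genes were listed by name as parts of the centromere, the kinetochore and the checkpoint, and each matched 1 of the 51912 gene IDs in the deposited tables. All mice were 7-month-old males of the genotype Ghrflox/flox with SV40 C3(1) T-antigen+/0, so T antigen was present in both groups, and all received 250 mg/kg tamoxifen on each of 5 days and had tissue collected 1 month later. The 3 mice of the Ghr deletion group also carried ROSA26Cre-ERT2+/0, a tamoxifen-activated recombinase expressed from a ubiquitous locus. The labels list no recombinase allele for the 2 tamoxifen controls, so loss of the growth hormone receptor gene Ghr and presence of the recombinase cannot be told apart. The C3(1) promoter drives the viral T antigen in prostate epithelium, where it inactivates the retinoblastoma proteins.

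Each chromosome carries a kinetochore at its centromere, which is marked by nucleosomes holding the histone variant CENP-A. An inner layer, the constitutive centromere-associated network (CCAN), binds these nucleosomes, and the outer KNL1, MIS12 and NDC80 complexes bind spindle microtubules. At unattached kinetochores the checkpoint kinases TTK and BUB1 recruit MAD and BUB proteins, which hold back the anaphase-promoting complex (APC/C) until all chromosomes are attached. Many of these transcripts are made in G2 and mitosis, in part under control of the cell cycle genes homology region (CHR) and CCAAT boxes of their promoters.

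Promoter sequences (RefSeq, build GRCm38.p6) are shown so that genes with large and with small group differences can be compared. A promoter was found for 34 of the 37 genes; Spc24, Nsl1 and Ska1 had no entry. The runs below, written 5′ to 3′ on the gene's strand, lie just upstream of the start of 3 genes whose deletion libraries were all below both controls (Cenpf, Bub1 and Ttk) and of Ska2, whose groups overlapped. Capitals mark CCAAT or its reverse complement ATTGG. They come from chr1:189688087-189688226 (Cenpf, minus strand), chr2:127831866-127832005 (Bub1, minus strand), chr9:83834549-83834688 (Ttk, plus strand) and chr11:87109094-87109233 (Ska2, plus strand).
Cenpf: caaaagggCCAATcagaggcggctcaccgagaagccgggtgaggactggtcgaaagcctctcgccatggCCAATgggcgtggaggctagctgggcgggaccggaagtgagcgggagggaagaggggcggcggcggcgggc
Bub1: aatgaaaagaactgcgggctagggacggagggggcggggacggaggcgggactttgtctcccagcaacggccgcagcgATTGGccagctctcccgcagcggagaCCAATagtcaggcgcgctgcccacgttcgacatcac
Ttk: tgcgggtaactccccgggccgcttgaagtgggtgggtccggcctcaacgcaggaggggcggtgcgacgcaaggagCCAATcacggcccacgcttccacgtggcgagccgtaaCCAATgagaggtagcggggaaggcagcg
Ska2: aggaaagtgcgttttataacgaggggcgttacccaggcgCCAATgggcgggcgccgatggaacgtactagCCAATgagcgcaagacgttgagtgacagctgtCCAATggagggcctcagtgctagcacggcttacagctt

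The CHR letters, TTTGAA or TTCGAA on either strand, lay close to the start in many of these genes. The sites below are shown because they span the range of group differences, from Cenpf to Bub3. Capitals mark the CHR letters or the reverse complement TTCAAA, and in Bub3 also a CCAAT box. The sites are at chr1:189688069-189688094 (Cenpf, minus strand), chr2:127831830-127831855 (Bub1, minus strand), chr9:83834686-83834711 (Ttk, plus strand), chr2:119047140-119047165 (Knl1, plus strand), chr2:69206174-69206199 (Spc25, minus strand), chr5:30666892-30666917 (Cenpa, plus strand) and chr7:131560317-131560342 (Bub3, plus strand).
Cenpf: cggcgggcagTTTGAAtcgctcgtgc
Bub1: gcgcggggaaTTCGAAtcgccggcgg
Ttk: gcggggaaatTTCAAAcgtgtttccg
Knl1: ggcggttagaTTTGAAtacttcaggg
Spc25: cggtggagagTTTGAAattgaaagac
Cenpa: cgggtgatttTTTGAActgctggcga
Bub3: gccgttggcgTTCAAAatcagCCAAT

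Libraries of total RNA held 13812454 to 47656212 counts, and RSEM's gene-level estimates were used as deposited. Levels are given as library-scaled counts (CPM, with TMM correction for the make-up of each library). Levels of different genes are compared only in TPM, which take gene length into account. Count ratios between genes within a library ignore gene length and are compared only between libraries. Labelled prostate, the tissue was poor in prostate markers: Pbsn had 411 and 1 counts in controls versus 4, 8 and 3 in deletion libraries, and Hoxb13 had 13 and 0 versus 0, 1 and 4 (replicates in order, here and below). Seminal vesicle markers took 34.2% and 2.77% of all counts in controls versus 27.4%, 28.8% and 1.43% in deletion libraries. Control replicate 1 stood apart, with a TMM factor of 0.491 against 0.843 to 1.61 in the other libraries. The 50 genes of highest mean count over all libraries took 74.7% of its counts, against 22.7% to 50.9% in the others. The value without this control is therefore given beside the log2 fold changes above 0.25 in size that it moves by more than 1.5-fold or reverses. Ghr itself read 14.4 and 31.3 CPM in controls versus 8.13, 20.9 and 12.1 CPM in deletion libraries, which overlap.

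Most kinetochore and checkpoint genes had negative log2 fold changes, none of which passed the edgeR test, and the differences were uneven across the structure. The largest differences were in the corona proteins Cenpe and Cenpf, the checkpoint kinases Bub1 and Ttk, and the outer subunits Knl1, Nuf2 and Ska1, all with log2 fold changes (deletion minus control) below -3. Cenpm was also below -3. Without control replicate 1 none of these stayed below -3: the 7 genes ran from -2.94 (Nuf2) to -0.98 (Knl1), and Cenpm was 1.44. By contrast, Zwint, Cenpc1, Bub3, Mad1l1, Cenpo, Ska2 and Pmf1 had log2 fold changes between -0.17 and 0.22. The median log2 fold change was -1.20 over all 37 genes with no filter on low counts, where the median over 29569 genes was 0.099. Of the 37 genes, 32 had a log2 fold change below 0 in that fit, against 44.6% of all genes. Without control replicate 1 the median over the 36 genes tested was -0.53, and 25 of the 36 were below 0.

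Genes were called at an adjusted p under 0.05. No gene of the 36 that passed the low-count filter, and no gene among all 18615 tested, passed the edgeR quasi-likelihood test with Benjamini-Hochberg adjustment (0% called). The adjusted p of the 36 ran from 0.985 to 0.9995. In edgeR 12 of them had an unadjusted p under 0.05, all lower, against 3.23% of all genes tested, and limma-voom called 0. DESeq2 called 3, all lower, against 0.702% of all genes in that direction: Cenpf (adjusted p = 9.48e-06), Cenpe (adjusted p = 0.000203) and Bub1 (adjusted p = 0.0461). The log2 fold change was below -2 in 12 of the 36, against 2.42% of all genes tested. In bulk tissue, fewer dividing cells and less RNA per cell cannot be told apart, and transcripts made in the same cells are not independent observations.

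In CPM, all 3 deletion libraries lay below both controls for 18 of the 37 genes, against 10.2% of all genes tested. They lay above both controls for 2, Cenpc1 and Bub3, against 9.43% of all genes, and the groups overlapped for the other 17. With library totals in place of TMM factors 12 genes were separated on the lower side, against 2.69% of all genes. On the TPM scale 7 were, against 0.688%: Cenpf, Cenpe, Knl1, Nuf2, Ska1, Bub1 and Bub1b. Without control replicate 1, 18 were separated on the lower side, against 23.1% of all genes. The median log2 fold change of the 36 tested genes with all libraries was -1.18; the medians over all genes tested were 0.0045 with all libraries and 0.038 without that control.

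**Figure D1:**
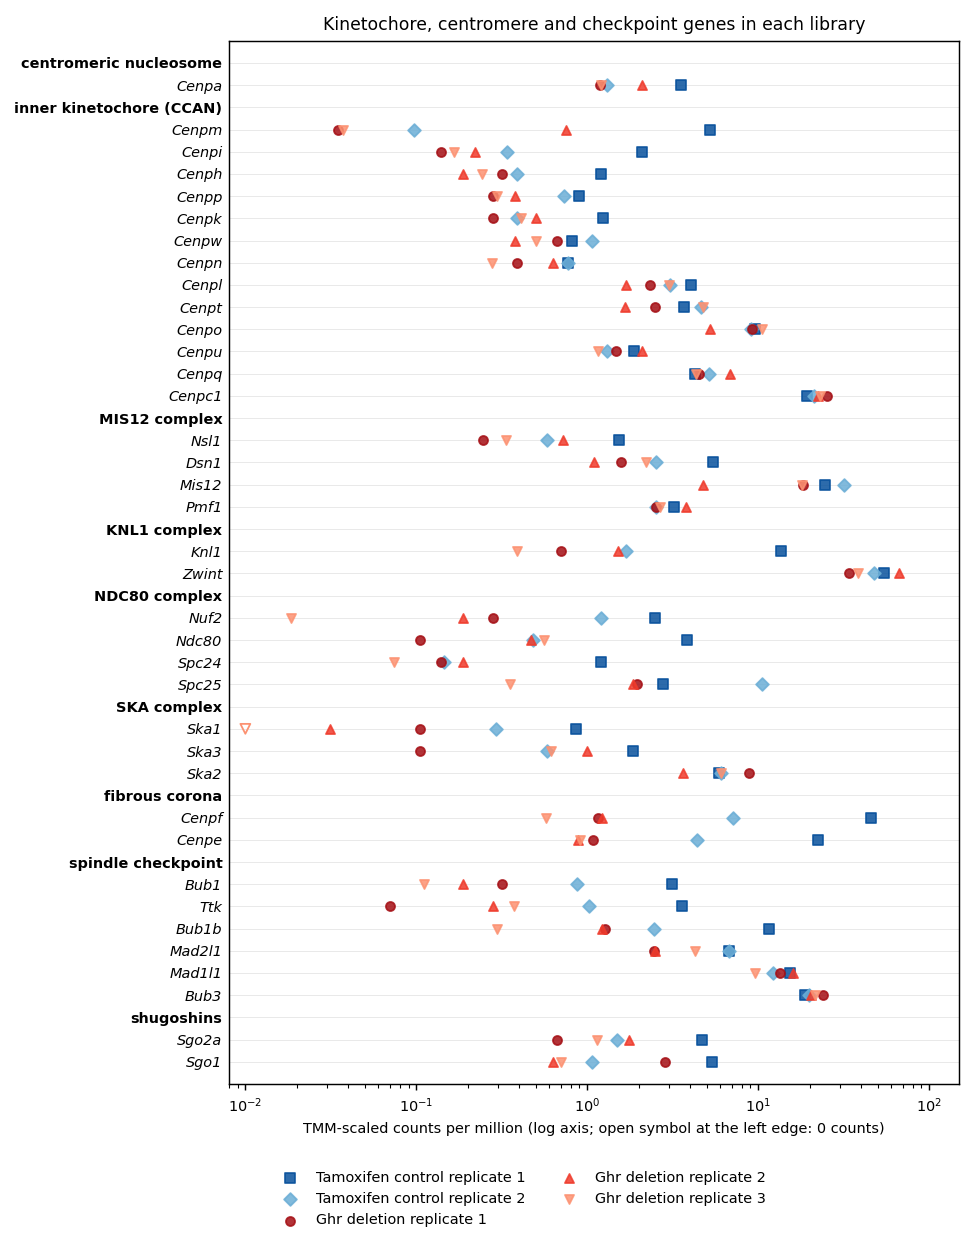
CPM (log axis) of the 37 genes in each of the 5 libraries, by complex; blue symbols are the 2 tamoxifen controls and red symbols the 3 Ghr deletion libraries. Both corona genes have every deletion library to the left of both controls, while Bub3 and Cenpc1 keep all 5 libraries close together; the open symbol is Ska1 at 0 counts in deletion replicate 3.

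In TMM-scaled CPM, the controls stood far apart for many of these genes. On that scale 27 of the 37 genes were higher in control replicate 1 than in control replicate 2, and 15 of them by more than 3-fold. These ratios depend on the scaling: TMM factors of 0.491 for control replicate 1 and 1.50 for control replicate 2 enlarge them. In TPM summed over the 37 genes, control replicate 1 was instead the lower, at 23.1 against 116. Of the 13 genes with a log2 fold change below -2 in the unfiltered fit, 10 were among those 15. Counts were small in many: 13 genes had 10 counts or fewer in some library, and 16 had fewer than 100 counts in every library.

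At the centromere itself, Cenpa, the histone variant that marks the site, read 3.51 and 1.31 CPM in controls versus 1.19, 2.10 and 1.21 CPM in deletion libraries. Its highest value was in control replicate 1, and deletion replicate 2 lay between the controls. The log2 fold change was -0.69 (SE 0.631), and 0.20 without control replicate 1.

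The CCAN, the inner layer that sits on CENP-A chromatin, had a median log2 fold change of -0.83 over its 13 genes, and -0.39 without control replicate 1. In CPM the deletion libraries were below both controls for 6 of them (Cenph, Cenpi, Cenpl, Cenpn, Cenpp and Cenpw), against 10.2% of all genes tested. They were above both for Cenpc1, against 9.43% of all genes, and overlapping for the other 6. On the TPM scale 0 of the 13 were separated on either side. Cenpi, an X-linked gene for a subunit that works with CENP-H and CENP-K, read 2.10 and 0.339 CPM in controls versus 0.140, 0.219 and 0.167 CPM in deletion libraries. Its deletion libraries held only 4, 7 and 9 counts, and in CPM all lay below both controls, of which replicate 1 was by far the higher. The log2 fold change of Cenpi was -2.77 (SE 0.898; 95% interval -4.92 to -0.62) and -0.93 without control replicate 1. Cenph read 1.20 and 0.387 CPM in controls versus 0.315, 0.188 and 0.241 CPM in deletion libraries, and its log2 fold change was -1.67 (SE 0.776), or -0.64 without control replicate 1.

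At the other end of the CCAN, Cenpu, a subunit of the branch that holds CENP-O, CENP-P and CENP-Q, read 1.88 and 1.31 CPM in controls versus 1.47, 2.10 and 1.15 CPM in deletion libraries. The groups interleaved, with a log2 fold change of -0.02 (95% interval -1.35 to 1.31). Cenpc1, the mouse gene for CENP-C, which links CENP-A nucleosomes to the outer kinetochore, read 19.3 and 21.1 CPM in controls versus 25.2, 22.3 and 22.9 CPM in deletion libraries. Those values give a log2 fold change of 0.22 (SE 0.271), smaller than its error.
Cenpm had the widest error of all the genes, with 122 and 2 counts in controls versus 1, 24 and 2 counts in deletion libraries. Its log2 fold change of -3.29 (SE 1.72) became 1.44 without control replicate 1, so a single library set its direction. The remaining CCAN genes lay between -1.35 (Cenpp) and 0.14 (Cenpq). With control replicate 1 left out, Cenpk moved from -1.03 to 0.04, Cenpl from -0.60 to -0.39, Cenpq from 0.14 to 0.01 and Cenpu from -0.02 to 0.26.

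The MIS12 complex, the bridge between inner and outer kinetochore, had a median log2 fold change of -1.14 over its 4 genes, and -0.53 without control replicate 1. Dsn1, the subunit through which Aurora B regulates the bridge, read 5.43 and 2.52 CPM in controls versus 1.58, 1.10 and 2.19 CPM in deletion libraries. Mis12 read 24.6 and 31.6 CPM in controls versus 18.3, 4.76 and 18.1 CPM in deletion libraries. Both genes had every deletion library below both controls, with log2 fold changes of -1.29 (SE 0.572; -0.63 without control replicate 1) and -1.03 (SE 0.574). Unlike most genes of the set, Mis12 was higher in control replicate 2 than in control replicate 1, and its low value in deletion replicate 2 set it apart from the other deletion libraries. Pmf1 overlapped between groups, at 3.21 and 2.52 CPM in controls versus 2.52, 3.76 and 2.65 CPM in deletion libraries (log2 fold change 0.06, SE 0.472). Nsl1 had a log2 fold change of -1.29 (SE 0.781; -0.42 without control replicate 1) on 7 to 36 counts and overlapped as well.

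In the KNL1 complex, the platform on which checkpoint proteins gather, the partners differed from each other. Knl1, the scaffold that BUB proteins bind, read 13.6 and 1.69 CPM in controls versus 0.701, 1.50 and 0.390 CPM in deletion libraries. Zwint, which joins KNL1 to the RZZ complex, read 54.2 and 47.7 CPM in controls versus 34.0, 66.7 and 38.4 CPM in deletion libraries. The Knl1 values did not overlap, but control replicate 2 lay next to deletion replicate 2, while those of Zwint overlapped. The log2 fold change was -3.15 (SE 0.963) for Knl1, -0.98 without control replicate 1, and -0.14 (SE 0.363) for Zwint. Within a library, where no scaling enters, Knl1 counts were 25.2% and 3.55% of Zwint counts in controls versus 2.06%, 2.26% and 1.02% in deletion libraries.

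The NDC80 complex is the rod that grips the microtubule, with Ndc80 and Nuf2 at the microtubule end and Spc24 and Spc25 at the kinetochore end. Nuf2 read 2.48 and 1.21 CPM in controls versus 0.280, 0.188 and 0.0186 CPM in deletion libraries, the last being 1 count. Spc25 read 2.78 and 10.5 CPM in controls versus 1.96, 1.85 and 0.353 CPM in deletion libraries. Both were separated between groups, and for Spc25 the higher control was replicate 2, unlike most genes of the set. Log2 fold changes were -3.55 (SE 1.01) for Nuf2 and -2.26 (SE 0.872) for Spc25, and -2.94 and -2.92 without control replicate 1. Ndc80 read 3.85 and 0.484 CPM in controls versus 0.105, 0.470 and 0.557 CPM in deletion libraries, so that control replicate 2 fell inside the deletion range. Its log2 fold change of -2.49 (SE 1.03) was -0.34 without control replicate 1. Spc24, which did not pass the low-count filter and was not tested, had 28 and 3 counts in controls versus 4, 6 and 4 counts in deletion libraries. Nuf2 and Ndc80, whose proteins form a dimer, did not hold a steady ratio, on as few as 1 count: Nuf2 counts were 64.4% and 250% of Ndc80 counts in controls versus 267%, 40.0% and 3.33% in deletion libraries.

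The SKA complex, which helps NDC80 track shrinking microtubules, showed the same unevenness. Ska1, the microtubule-binding subunit, had 20 and 6 counts in controls versus 3, 1 and 0 counts in deletion libraries, where 0 counts allow up to 0.0557 CPM. In CPM these were 0.856 and 0.290 in controls versus 0.105, 0.0313 and 0 in deletion libraries, with no overlap. The log2 fold change was -3.72 (SE 1.29). Ska2 read 5.86 and 6.05 CPM in controls versus 8.87, 3.63 and 6.05 CPM in deletion libraries, and its log2 fold change was 0.05 (95% interval -1.11 to 1.21). Ska3 read 1.84 and 0.581 CPM in controls versus 0.105, 1.00 and 0.613 CPM in deletion libraries, which overlap (log2 fold change -1.07, SE 0.972; -0.01 without control replicate 1).

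The fibrous corona, the outermost layer that forms before microtubules attach, had the lowest median log2 fold change of the complexes, -4.26 (unfiltered) over its 2 genes. Its median was -2.52 without control replicate 1, and that of the 3 tested NDC80 genes was lower, at -2.92. Cenpf, a large coiled-coil protein of the corona (chromosome 1, 189640606 to 189688086, minus strand, GRCm38), read 45.8 and 7.12 CPM in controls versus 1.16, 1.22 and 0.575 CPM in deletion libraries. Cenpe, the kinesin motor that carries chromosomes to the spindle equator (chromosome 3, 135212537 to 135273611, plus strand), read 22.4 and 4.36 CPM in controls versus 1.09, 0.877 and 0.909 CPM in deletion libraries. For both genes the lower control stood several-fold above the highest deletion library, and the deletion libraries lay close to each other. The group means were 26.5 ± 27.3 CPM (SD, n = 2) against 0.985 ± 0.356 CPM (SD, n = 3) for Cenpf, and 13.4 ± 12.7 against 0.958 ± 0.113 CPM for Cenpe. Log2 fold changes were -4.75 (SE 0.826) and -3.80 (SE 0.710), with edgeR Benjamini-Hochberg adjusted p = 0.985 for each, and were -2.86 and -2.18 without control replicate 1. Cenpf counts were 243% and 35.8% of Bub3 counts in controls versus 4.81%, 6.02% and 2.69% in deletion libraries. Cenpe counts were 119% and 21.9% of Bub3 counts against 4.52%, 4.32% and 4.25%. In TPM both genes were below Bub3 in every library. The controls read 0.87 and 0.82 TPM for Cenpf, 0.68 and 1.04 for Cenpe, and 1.38 and 9.31 for Bub3.

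Of the 6 spindle checkpoint genes, Bub1, Ttk, Bub1b and Mad2l1 had every deletion library below both controls in CPM, against 10.2% of all genes tested. Bub3 had every one above, against 9.43% of all genes, and Mad1l1 overlapped. The median log2 fold change of the 6 was -2.01, and -1.28 without control replicate 1. Bub1, the kinase that marks centromeric chromatin and scaffolds the checkpoint, read 3.12 and 0.871 CPM in controls versus 0.315, 0.188 and 0.111 CPM in deletion libraries. Ttk, the kinase MPS1 that starts the signal by phosphorylating KNL1, read 3.59 and 1.02 CPM in controls versus 0.0701, 0.282 and 0.371 CPM in deletion libraries. Neither gene overlapped between groups, and in each the controls themselves differed by more than 3-fold. Log2 fold changes were -3.30 (SE 0.821) for Bub1 and -3.20 (SE 0.880) for Ttk, and -2.10 and -2.03 without control replicate 1. Bub1b, which encodes the APC/C inhibitor BubR1, read 11.5 and 2.47 CPM in controls versus 1.26, 1.22 and 0.297 CPM in deletion libraries (log2 fold change -2.93, SE 0.872; -1.42 without control replicate 1).

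Mad2l1, the gene for MAD2, which binds CDC20 in the inhibitory complex, read 6.72 and 6.73 CPM in controls versus 2.45, 2.47 and 4.27 CPM in deletion libraries. Here the controls were almost equal in CPM: the log2 fold change was -1.13 (SE 0.451) with all libraries and -1.13 without control replicate 1. Relative to Mad1l1 counts within each library, Mad2l1 counts were 44.0% and 54.9% in controls versus 18.4%, 15.5% and 44.5% in deletion libraries, which overlap. Mad1l1, the MAD2 receptor at kinetochores, overlapped between groups, at 15.3 and 12.2 CPM in controls versus 13.3, 16.0 and 9.60 CPM in deletion libraries (log2 fold change -0.09, SE 0.358). Bub3, the shared adaptor that carries BUB1 and BubR1 to KNL1, read 18.9 and 19.9 CPM in controls versus 24.0, 20.3 and 21.4 CPM in deletion libraries (log2 fold change 0.18, SE 0.276). The deletion libraries lay above both controls for Bub3, by less than the error of the estimate. Relative to its adaptor within each library, Bub1 counts were 16.6% and 4.38% of Bub3 counts in controls versus 1.31%, 0.926% and 0.521% in deletion libraries.

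The shugoshins, which protect centromeric cohesin, overlapped between groups. Sgo1 read 5.39 and 1.07 CPM in controls versus 2.84, 0.626 and 0.705 CPM in deletion libraries, and its log2 fold change of -1.22 (SE 0.945) was 0.37 without control replicate 1. Sgo2a read 4.66 and 1.50 CPM in controls versus 0.666, 1.75 and 1.13 CPM in deletion libraries (log2 fold change -1.38, SE 0.698; -0.34 without control replicate 1). In the annotation 35.0% of the exon bases of Sgo2a overlap exons of Kctd18 on the other strand, and Sgo2b is a related copy, so its counts are uncertain. The same holds, to a smaller extent, for Cenpu (26.7%, Primpol), Cenpo (19.0%, Adcy3), Cenpp (12.3%, Ippk) and Ska2 (10.1%, Gm11491), since the strand setting of the counting is not given in the sources used here.

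**Figure D2:**
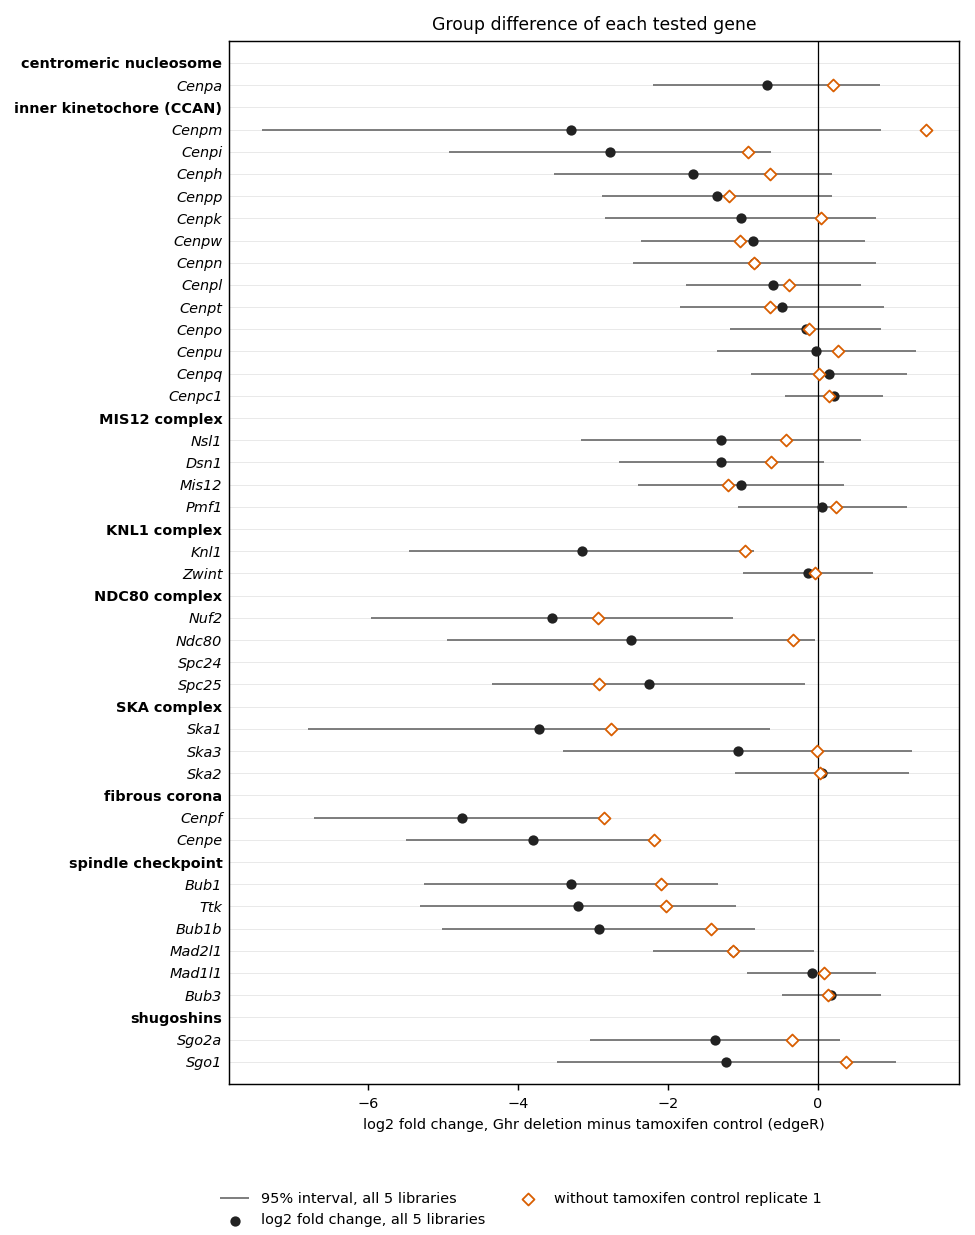
Log2 fold change (deletion minus control) of the 36 tested genes, by complex, with 95% intervals from edgeR; open orange diamonds give the value without tamoxifen control replicate 1, and Spc24 was not tested. Cenpf, Cenpe, Nuf2, Spc25, Ska1, Bub1 and Ttk stay below -2 without that control, whereas Ndc80, Ska3 and Sgo1 move to -0.34, -0.01 and 0.37.

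Per transcript length, the genes differed widely in abundance, and those lowest in abundance were not the same in all libraries. Zwint had the highest TPM of the 37 in every library, at 6.33 and 33.1 TPM in controls versus 12.5, 26.4 and 49.5 TPM in deletion libraries. Summed over the 37 genes, TPM was 23.1 and 116 in controls versus 45.1, 61.7 and 157 in deletion libraries, and control replicate 1 was the lowest on this scale. TPM carries no TMM correction for the share taken by the most abundant transcripts. Behind Zwint came Bub3, Cenpc1 and Mis12, with mean TPM over the 5 libraries of 8.28, 7.06 and 6.06, whose ranges over libraries overlap. Spc25 ranked 2 in control replicate 2, at 13.0 TPM, and between 9 and 17 in the other libraries. Ska1, at 0 to 0.12 TPM, had the lowest mean.

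The share of each complex within the summed TPM of a library avoids scaling between libraries. The corona took 6.73% and 1.60% in controls versus 0.466%, 0.260% and 0.217% in deletion libraries. The NDC80 complex took 5.51% and 12.1% against 3.48%, 2.63% and 1.11%, and here too all deletion libraries were below both controls. The spindle checkpoint genes took 17.0% and 16.8% against 22.4%, 20.0% and 19.8%, most of it Bub3 and Mad1l1. The 6 genes of highest mean TPM (Zwint, Bub3, Cenpc1, Mis12, Mad1l1 and Cenpo) together took 53.8% and 61.8% in controls versus 72.4%, 75.0% and 73.3% in deletion libraries. The KNL1 complex overlapped, at 29.2% and 28.8% against 27.8%, 43.1% and 31.7%.

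**Figure D3:**
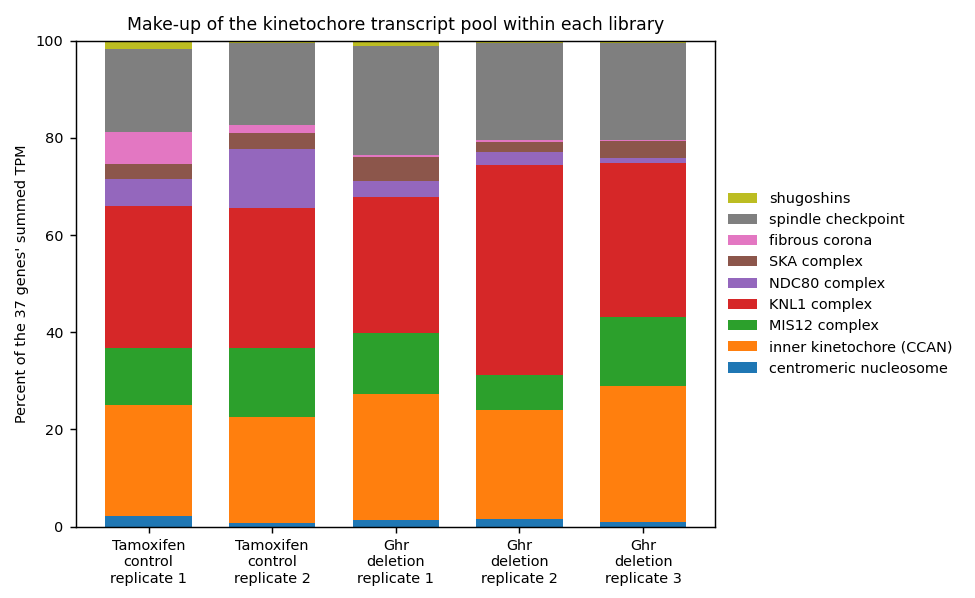
Percent of the summed TPM of the 37 genes taken by each complex in each library (stacked bars, 1 bar a library, each adding to the whole). The corona band shrinks from 6.73% and 1.60% in the controls to 0.217% to 0.466% in the deletion libraries, and the KNL1 band, nearly all Zwint, is the widest in every library.

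The promoter letters were more frequent in these genes than in all genes with a promoter sequence. A gene was counted where any of its promoters held the letters. Within 300 bases (250 before to 50 after the start), the CHR letters were found in 16 of the 34 genes with a sequence (47.1%), against 21.7% of 27025 genes. CCAAT on either strand was found in 24 (70.6%), against 41.1%, and both elements in 13 (38.2%), against 8.6%. E2F letters (TTTCCCGC, TTTGGCGC, TTTCGCGC or TTTGCCGC, either strand) were found in 3, Cenpl, Cenpm and Dsn1 (8.8%), against 2.6% of all genes. In 13 of the 16 genes the CHR letters lay within 50 bases of the start, as in the sites printed above.

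Genes with and without the CHR letters overlapped in group difference. With all libraries, 8 of the 16 genes with CHR letters had a log2 fold change below -2, against 3 of the 18 without. Leaving out control replicate 1 (filtered fit), Cenpf, Spc25, Bub1 and Ttk of the former and Cenpe and Nuf2 of the latter stayed below -2. Knl1 then had -0.98, Bub1b -1.42, Ndc80 -0.34 and Cenpm 1.44, all with CHR letters, and Cenpi, without them, had -0.93. From the unfiltered fit of all libraries, the median log2 fold change was -1.72 over the 16 genes with CHR letters and -1.01 over the 18 without. The ranges were -4.73 to 0.20 and -3.78 to 0.24. Bub3 and Pmf1 carry both elements and had log2 fold changes of 0.20 and 0.08 in that fit, and Ska2, with 5 CCAAT boxes, had 0.07. Nuf2 and Mad2l1 carry neither and had -3.53 and -1.11. A match says only that the letters are present in the window.

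**Figure D4:**
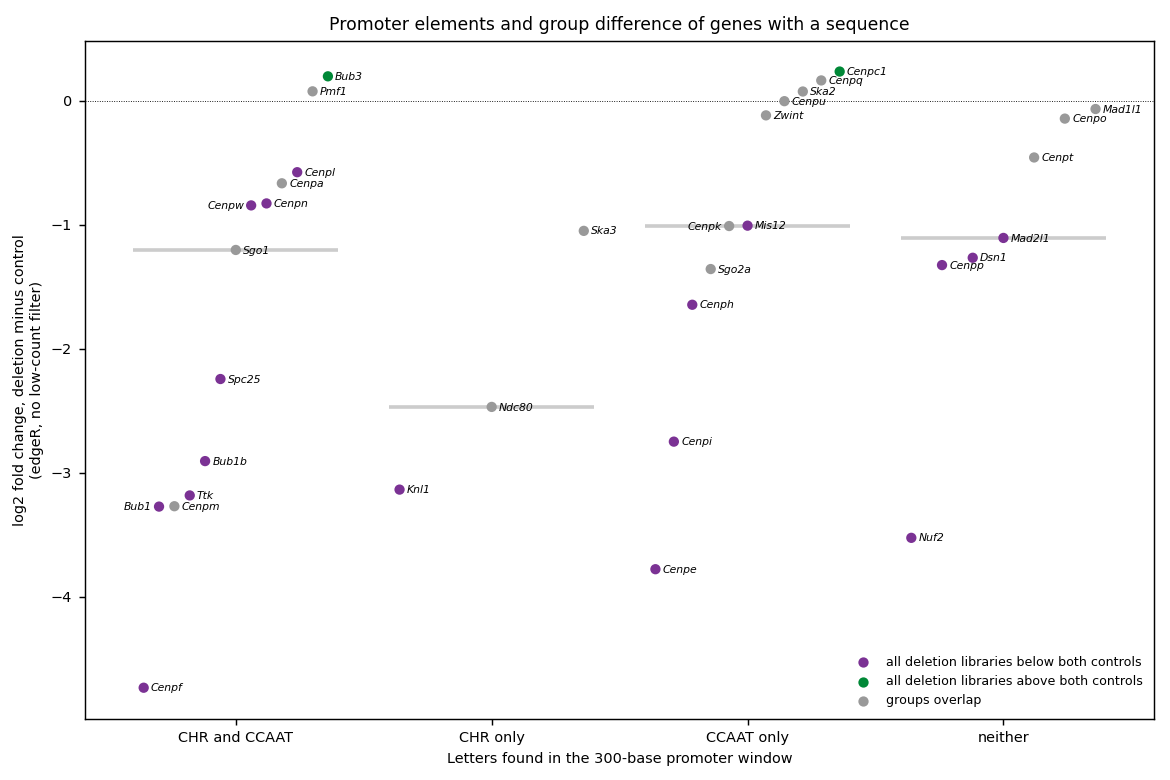
Log2 fold change (deletion minus control, unfiltered fit) of the 34 genes with a promoter sequence, by the letters found in the 300-base window; purple points have all deletion libraries below both controls, green above both, grey overlapping, and grey bars are class medians. Each of the 2 largest classes spans the range from below -3 to above 0, with Cenpf and Bub3 in the same class.

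Genes that act with the kinetochore were read from 6 lists of 49 genes, all of which were tested. None passed the edgeR test with Benjamini-Hochberg adjustment, and 13 had an unadjusted p under 0.05, all lower (3.23% of all genes tested). Limma-voom called 0 of all genes, and DESeq2 called Kntc1, Kif2c and Cdca5, all lower (0.702% of all genes). The deletion libraries were below both controls for 16 (10.2% of all genes tested) and above both for 3 (9.43%), and the median log2 fold change was -0.10. Without control replicate 1 the median was -0.04, and the lists differed from each other.

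The chromosomal passenger complex, which senses faulty attachments, had 3 of 4 genes below both controls, where 10.2% of all genes tested are (median log2 fold change -2.28, and -0.97 without control replicate 1). Its kinase Aurkb read 3.59 and 0.629 CPM in controls versus 0.315, 0.125 and 0.148 CPM in deletion libraries, and its scaffold Incenp 6.37 and 2.37 against 1.75, 2.63 and 2.32 CPM, which overlap. Of the RZZ complex and Spindly, which bring dynein to the corona, 3 of 4 were below both controls: Kntc1 read 7.19 and 2.61 CPM against 0.701, 0.532 and 0.353 CPM (log2 fold change -3.22, SE 0.648), and Zw10 overlapped at 20.1 and 16.1 against 18.8, 15.6 and 16.6 CPM. Among genes of checkpoint silencing and error correction 3 of 5 were below both controls, led by the microtubule depolymerase Kif2c at 4.49 and 0.484 CPM against 0.140, 0.0313 and 0.0557 CPM, while the histone kinase Haspin overlapped (log2 fold change -0.36, and -0.05 without control replicate 1). Of the CENP-A loading list 3 of 9 were below both controls (median -0.71, and 0.29 without control replicate 1). There the loading factor Oip5 read 2.10 and 1.35 CPM against 0.280, 0.658 and 0.520 CPM, and Cenpx had a log2 fold change of 0.03 (0.49 without control replicate 1).

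Most genes downstream of the checkpoint overlapped between groups. All 14 core APC/C subunits overlapped between groups, with log2 fold changes in the unfiltered fit of -0.41 to 0.57, and Anapc11 read 4.92 and 5.57 CPM in controls versus 4.52, 5.39 and 5.61 CPM in deletion libraries. Its mitotic coactivator Cdc20, the protein the checkpoint captures, was below both controls, at 4.41 and 0.726 CPM against 0.315, 0.689 and 0.483 CPM (log2 fold change -2.36, SE 0.843; -0.55 without control replicate 1). The 8 cohesin ring and regulator genes had log2 fold changes of 0.003 to 0.48 in the unfiltered fit, and Pds5a had -0.02 in the filtered fit. In CPM all deletion libraries lay above both controls for 2 (Smc3 and Stag1), against 9.43% of all genes tested, and below both for none. On the TPM scale 0 of the 8 were separated on either side. Espl1 (separase, which cleaves cohesin) and Cdca5 (sororin, which protects it) were below both controls. Cdca5 read 1.67 and 1.11 CPM in controls versus 0.140, 0.157 and 0.148 CPM in deletion libraries (log2 fold change -3.20, SE 0.641).

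Markers of other cell types moved with the groups as well. Summed CPM was lower in every deletion library than in both controls for endothelium (64.7 to 74.6 in the controls, 22.8 to 35.2 in the deletion libraries; 5 of 5 genes separated on that side, where 10.2% of all genes tested are), macrophages (61.2 to 94.6 against 38.7 to 47.1; 5 of 6), fibroblasts (322 to 518 against 78.8 to 247; 3 of 6) and T cells (5.48 to 10.4 against 1.25 to 2.99; 3 of 6, with Trac at 0 in a library). Of the 2 lists whose genes are not given, 1 was lower, by a narrow margin, and 1 higher in every deletion library. Both had low summed CPM, with genes at 0 counts in some libraries. Epithelial markers overlapped (892 to 1402 against 868 to 1892 CPM), and so did germ cell markers (0.214 to 0.629 against 0.210 to 0.427 CPM), of which Sycp3, Dazl and Stra8 were at 0 in some libraries. Sums also overlapped for basal epithelium (62.4 to 85.8 against 15.9 to 84.0 CPM), smooth muscle (1690 to 3025 against 1168 to 4243 CPM), urothelium (25.2 to 79.9 against 47.0 to 148 CPM), vas deferens and epididymis (highest 1610 in the controls and 5417 in the deletion libraries, lowest 36.3 in deletion replicate 3) and erythroid markers (7.36 to 16.6 against 1.16 to 8.52 CPM), as they did for the prostate and seminal vesicle lists. Within lists whose sums overlapped, some genes were still below both controls, where 10.2% of all genes tested are. These were 4 of 7 for seminal vesicle, 2 of 4 for basal epithelium, 1 of 5 for prostate and 1 of 3 for erythroid markers. No gene was for epithelium, urothelium, smooth muscle, vas deferens and epididymis or germ cells. Among the lists with overlapping sums, only epithelium had a gene above both controls, 1 of its 4, where 9.43% of all genes tested are. That gene, Krt18, read 345 and 328 CPM in controls versus 384, 907 and 427 CPM in deletion libraries. Within the urothelium list, deletion replicate 3 stood apart. Upk3a had 0 and 0 counts in controls versus 0, 0 and 1046 in deletion libraries, and Upk1a had 7 and 10 versus 11, 22 and 1404. The part of these cell types in the levels of the kinetochore genes was not tested.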

How the data were processed

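Total RNA libraries (TruSeq Stranded Total RNA, per the labels' protocols) came from 2 tamoxifen control and 3 Ghr deletion mice, which the series calls biological replicates. Per the submitters' processing notes, the tools were STAR 2.5.3a, RSEM 1.3.0 and bcl2fastq 2.20.422, with build GRCm38; the sources used here give no annotation release or strand setting. Per the file headers, the authors deposited RSEM's expected counts, not normalized, and TPM for 51912 gene IDs, of which 279 had no symbol. Positions and exon overlaps came from GENCODE annotation of GRCm38 and promoters from RefSeq.

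Expected counts were rounded, and a model with the group as its term was fitted in edgeR 4.0.16 under R 4.3.3 (filterByExpr, TMM, robust glmQLFit, glmQLFTest), with Benjamini-Hochberg adjustment over 18615 genes and calls at an adjusted p under 0.05. Log2 fold changes had a median SE of 0.529. A count of 3 stood for 0.0557 to 0.145 CPM. Intervals have a level of 95%. Alternatives were other scalings, no filter, DESeq2 1.42.0, limma-voom and limma (3.58.1) on log2 TPM with pseudocounts of 0.1 and 1, libraries left out, and a replicate block.

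The genes and lists were chosen with earlier results of these data known. All 37 genes are accounted for. Values by library follow a rule (in each complex the 2 genes of smallest and the 1 of largest unadjusted p, all genes of complexes of 3 or fewer, and any gene outside the filter; in each other list the smallest and the largest), and those of Cenpc1, Cenpm, Bub1b, Bub3 and Mad2l1 were added after they were seen. Of 15 cell type marker lists, 2 are given without their genes and values.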

Additional observations from a re-analysis of the deposited data

How the results depend on the processing

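With 2 controls, 1 of which stands apart, and few counts for many of these genes, the errors are wide. The median log2 fold change of the 36 tested genes stayed below 0 under all 15 alternatives, with a range of -0.53 to -1.56 when libraries were left out in turn. Over all genes, edgeR called 46 with library totals only, 8 with the replicate block, 141 without control replicate 1 and deletion replicate 3, and 0 to 44 when libraries were left out in turn; DESeq2 called 164, and limma on log2(TPM + 0.1) and log2(TPM + 1) called 12 and 11. Of the kinetochore genes, library totals called 1 (Cenpf), DESeq2 3, and leaving out libraries in turn 0 to 2 (Cenpf and Cenpe without control replicate 2); the block called 0. On the TPM scale 7 of the kinetochore genes were below both controls, a count that the choice of pseudocount cannot change. The replicate numbers were not taken as pairs, since the titles do not state that they pair animals. Deviations of same-numbered libraries from their group means correlated at 0.13 and -0.14. These values cannot decide whether animals were paired, because the deviations of 2 controls from their own mean are mirror images.

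Of 540 log2 fold changes of single genes under the alternatives, 34 had the opposite sign, and 25 of the 36 genes never did. Library totals shifted the median of all genes by 0.23 and the TPM scales by 0.91 and 0.54; values are relative to these shifts. With library totals Cenpu was 0.024. With limma-voom Ska2 was -0.044. With TPM + 0.1 Ska2 was -0.23, Cenpo 0.069 and Mad1l1 0.070, and with TPM + 1 Ska2 was -0.16, Cenpo 0.14, Mad1l1 0.17 and Zwint 0.21. Without control replicate 1 and deletion replicate 3 Zwint was 0.076, Cenpk 0.016, Sgo1 0.70, Cenpa 0.33, Mad1l1 0.26, Cenpu 0.45 and Cenpm 1.98. With the replicate block Ska2 was -0.066, Mad1l1 0.094 and Cenpu 0.16. With libraries left out in turn, ranges were -1.23 to 0.20 for Cenpa, -1.63 to 0.037 for Cenpk, -6.05 to 1.44 for Cenpm, -0.37 to 0.079 for Cenpo, -0.10 to 0.29 for Cenpq, -0.29 to 0.26 for Cenpu, -0.27 to 0.091 for Mad1l1, -0.15 to 0.24 for Pmf1, -2.25 to 0.37 for Sgo1, -0.28 to 0.32 for Ska2 and -0.49 to 0.064 for Zwint. The cause of these changes was not tested.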
